A study of Rattus norvegicus with 8 samples.

Results

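The keratins are the intermediate filament proteins of epithelial cells, and their transcripts were examined here in RNA sequencing of the thyroarytenoid (TA) muscle, the vocal fold muscle of the larynx. Members were all genes of the authors' table whose symbol is Krt followed by a number and at most 1 letter, with the keratin-associated genes left out. By this rule there were 19 keratins among 14016 entries, each on 1 row. The libraries came from male Long Evans rats at 8 months of age, 4 carrying the Pink1-/- knockout and 4 WT, and each entry has 1 average over all of them. The average is given as log2 CPM, where CPM is the number of reads of a gene per 1000000 reads of a library. It pools Pink1-/- and WT rats, so no level below belongs to a single genotype or rat, no spread can be given, and no difference between Pink1-/- and WT was analysed here for any keratin.

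Keratin filaments are built from pairs, each with an acidic type I and a basic type II protein, and the pair in use marks the kind of epithelium. Cells at the base of layered epithelia use Krt5 with Krt14 or Krt15, the upper cells of moist mucosa use Krt4 with Krt13, and those of skin that forms a dry horny layer use Krt1 with Krt10. Single-layered and glandular epithelia use Krt8 with Krt18, joined by Krt7, Krt19 or Krt20. Skeletal muscle fibers rely mainly on desmin, while the vocal folds are covered by layered epithelium next to glands.

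The keratins together held 1061 CPM, which is 0.104% of the summed average CPM of all entries. Their levels ran from -0.97 for Krt20 to 8.18 for Krt4 in average log2 CPM, a range of 9.15. The median keratin was at 3.92 and the median of all entries at 3.14 in average log2 CPM. Of the 19 keratins, 12 lay above the median of all entries and 7 below. Above the upper quartile of all entries (4.49) lay 7 keratins, and below the lower quartile (1.73) lay 6. Reads per gene rise with transcript length, and lengths were not used, so the orders given here are of reads and not of transcript numbers.

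**Figure D1:**
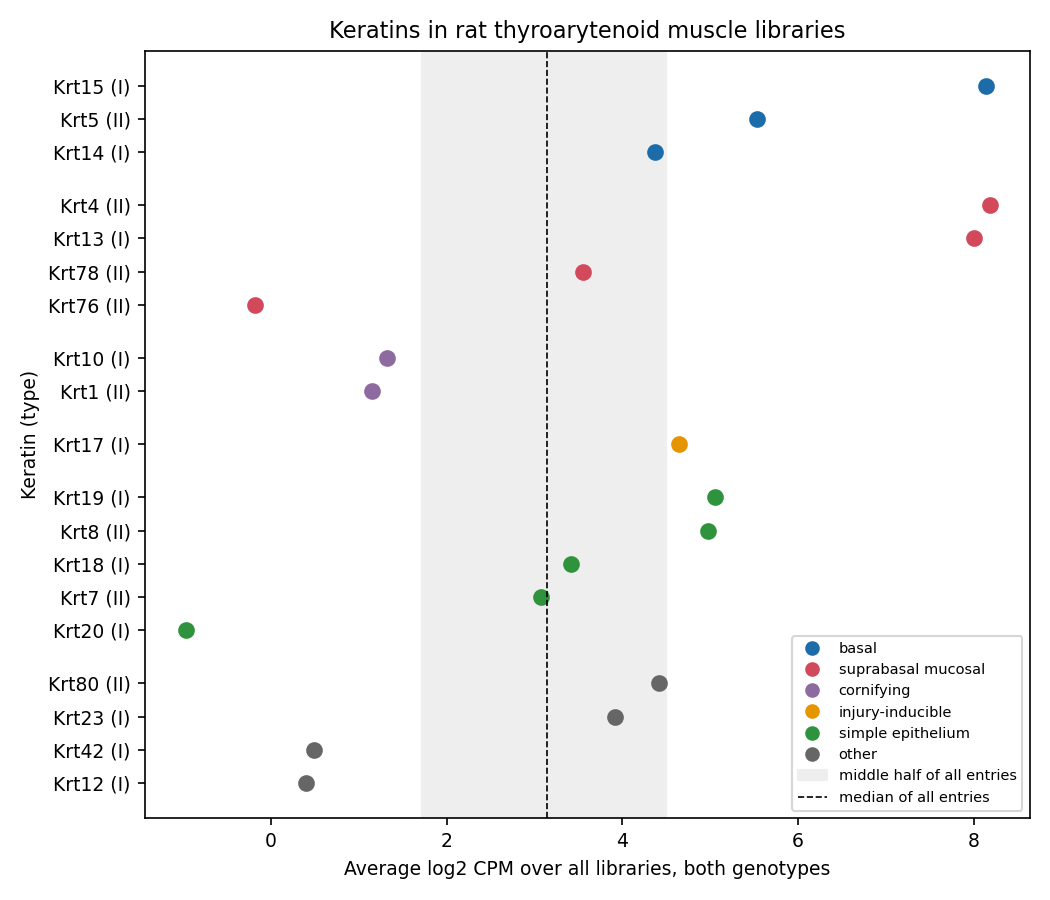
Average log2 CPM of the 19 keratins (x axis, all libraries of both genotypes pooled) by class, 1 point per gene with no error because the average is a single value, and with the type of each in brackets. The grey band runs from 1.73 to 4.49, the quartiles of all entries, and the dashed line is their median at 3.14. Krt4, Krt15 and Krt13 stand together near 8, while Krt76 and Krt20 lie below 0.

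The reads were concentrated in 3 genes, the moist-mucosa pair Krt4 and Krt13 and the basal keratin Krt15. Together they held 78.1% of all keratin reads, and Krt4, Krt15 and Krt13 ranked 152nd, 157th and 179th among the 14016 entries. The next keratin, Krt5, ranked 1596th.

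The suprabasal mucosal keratins, which replace the basal ones as a cell leaves the bottom layer, held the largest summed CPM of the 6 classes with a row, with 559.9 CPM or 52.7% of the keratin total over 4 members. Krt4, the type II partner of this pair, averaged 8.18 log2 CPM (290.0 CPM, ENSRNOG00000032332). Krt13, its type I partner, averaged 8.01 log2 CPM (257 CPM, ENSRNOG00000014070). The pair thus drew read numbers of the same order, although no spread is known against which their difference could be set. Krt78, a type II keratin of differentiating layered epithelia, averaged 3.55 log2 CPM (11.7 CPM). Krt76, a type II keratin best known from the hard palate and gums, averaged -0.19 log2 CPM (0.879 CPM) and lay above only 2.14% of entries.

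A later study of younger rats placed 4 keratins on its NanoString CodeSet, namely Krt1, Krt2, Krt13 and Krt78, and 3 of them have a row here. It states that the CodeSet drew on differential expression in these TA muscle data and in a brainstem dataset. The CodeSet was therefore not chosen independently of these data. The target stretches of Krt13 and Krt78 are shown because these members of the mucosal class differ widely in reads here and were probed by sequence there. Each is 100 bases long in the study's design, 5′ to 3′ on the transcript strand, in lower case since no position within them is singled out.

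Krt13: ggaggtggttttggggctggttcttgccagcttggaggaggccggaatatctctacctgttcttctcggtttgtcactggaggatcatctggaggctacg

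Krt78: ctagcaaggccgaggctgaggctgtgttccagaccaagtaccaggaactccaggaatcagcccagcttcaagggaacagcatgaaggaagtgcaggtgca

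Of these bases, 55 are G or C in the Krt13 target and 56 in the Krt78 target. Krt1, at 1.15 average log2 CPM, is described with the cornifying class, and Krt2, the partner of Krt10 in upper epidermis, was not analysed here.

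The basal keratins held 349 CPM, or 32.8% of the keratin total. Krt15, a type I keratin of the basal layer and of epithelial progenitor cells, supplied most of this, with 8.14 average log2 CPM (282 CPM, ENSRNOG00000014099). Krt5, the type II partner of the basal layer, averaged 5.53 log2 CPM (46.3 CPM, ENSRNOG00000050420). Krt14, the other type I partner, averaged 4.37 log2 CPM (20.7 CPM, ENSRNOG00000003899). The type I members of the class, Krt15 and Krt14, thus summed to 302 CPM and the only type II member, Krt5, to 46.3 CPM. Limits of naming touch both sides of this class. A separate row, LOC102551453, is described in the table as a keratin 5-like type II gene and averaged 3.97 log2 CPM (15.7 CPM), and reads of 2 such relatives may be divided between them, so the level of Krt5 is uncertain. RefSeq also lists Krt14 as an older name of Krt16, a keratin induced by injury. The row here was taken as Krt14 by its symbol, and neither its Ensembl ID nor its description was used to tell these genes apart.

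The simple-epithelium keratins held 84.2 CPM, or 7.93% of the keratin total, and all 5 members of this class had a row. Krt19, the type I keratin that lacks most of the usual tail, averaged 5.05 log2 CPM (33.2 CPM). Krt8, the type II partner of Krt18, averaged 4.97 log2 CPM (31.4 CPM). Krt18 itself averaged 3.41 log2 CPM (10.7 CPM). Krt7, a type II keratin of ducts and glands, averaged 3.08 log2 CPM (8.44 CPM), close to the median of all entries. Krt20, the keratin of gut lining, urothelium and Merkel cells, had the fewest reads of the family at -0.97 average log2 CPM (0.510 CPM), and 0.0642% of entries lay lower. Type I and type II members of this class summed to 44.4 and 39.8 CPM. Krt19 is also made in basal cells of layered mucosa, so its place among the simple keratins is a matter of convention. The class is named for the epithelium, and which cells of the muscle sample gave these reads was not tested.

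The cornifying keratins had few reads in the pooled libraries, with 4.71 CPM or 0.444% of the keratin total. Krt10 averaged 1.32 log2 CPM (2.50 CPM) and its partner Krt1 averaged 1.15 log2 CPM (2.22 CPM). Both lay in the lower quartile of all entries, above 19.6% and 17.4% of them. Krt9, the keratin of palms and soles, and Krt77 were not analysed here, and Krt2 likewise, so the class rests on 2 of its 5 members in RefSeq.

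Among keratins raised by injury, Krt17, a type I keratin of wounded epidermis and skin appendages, was the one with a row under its own symbol, with 4.64 average log2 CPM (24.96 CPM). No row under the symbols Krt6a and Krt16, its companions in wounds, was analysed here. If the row named Krt14 were Krt16, the injury-inducible sum would be 45.6 CPM in place of 24.96 CPM and the basal sum 328 CPM in place of 349 CPM. Because Krt14, Krt16 and Krt17 are close relatives, some reads of one could have been counted to another. The class is named by convention, and whether any of these reads reflect injury was not tested.

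The remaining 4 keratins belong to none of these classes and held 39.1 CPM, or 3.69% of the total. Krt80, a type II keratin that in human cells lies near desmosomes, averaged 4.41 log2 CPM (21.3 CPM). Krt23, a type I keratin, averaged 3.92 log2 CPM (15.1 CPM) and was the median member of the family. Krt42, a type I keratin known from mouse nail, averaged 0.49 log2 CPM (1.40 CPM). Krt12, the keratin of corneal epithelium, averaged 0.40 log2 CPM (1.32 CPM).

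**Figure D2:**
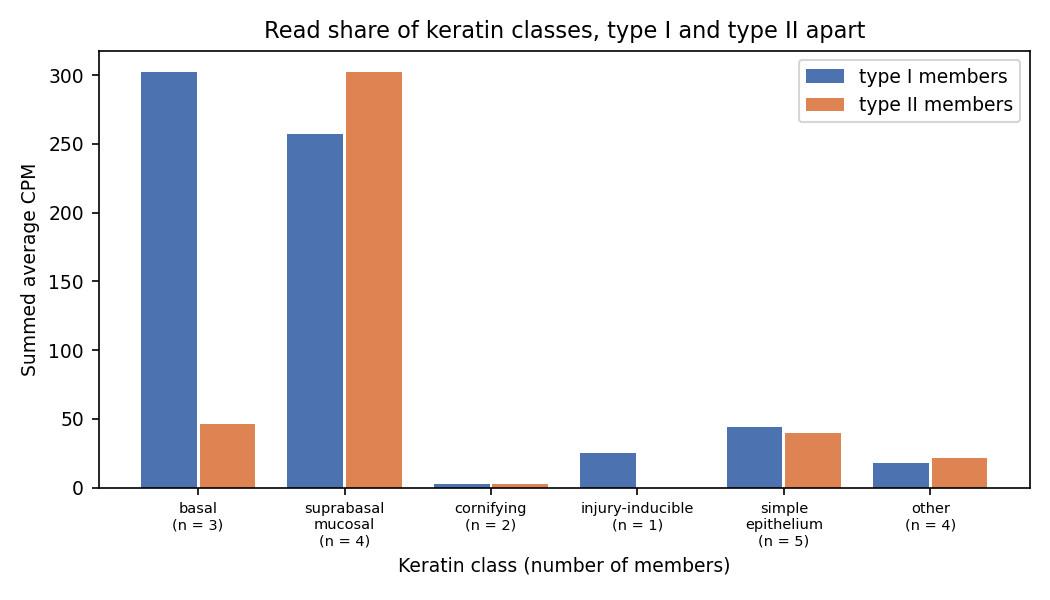
Summed average CPM (y axis, linear from 0) of the type I and type II members of each keratin class, for the 6 classes with at least 1 row, all libraries of both genotypes pooled and without error bars. The mucosal class is near balance at 257 CPM of type I and 303 CPM of type II, the basal class holds 302 CPM of type I against 46.3 CPM of type II, and the injury-inducible class shows type I alone because the row assigned to it is Krt17.

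Over the whole family, 11 type I keratins summed to 649 CPM and 8 type II keratins to 412 CPM, or 61.2% and 38.8% of the total. The surplus of type I reads lay mainly in the basal class. In the mucosal class type II reads were the more numerous, at 303 against 257 CPM. With transcript lengths unused and the keratin 5-like row apart, these sums do not give the ratio of the proteins.

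Keratin genes lie in 2 clusters, 1 for each type, with Krt18 as the type I gene that sits at the end of the type II cluster beside Krt8. In RefSeq (assembly GRCr8, used only for names and neighbours) the rat has 54 genes that match the rule, 27 in each cluster. Of these, 10 in the type I cluster and 9 in the type II cluster had a row, and the other 35 were not analysed here. All 23 genes of the hair and inner root sheath class were among those 35. A gene without a row has no level here, high or low, and the fast muscle markers Myh1, Myh2 and Atp2a1 also had none. In the type I cluster, 9 neighbouring hair keratins from Krt39 to Krt36 separate Krt10, Krt12, Krt20 and Krt23 from Krt13, Krt15 and Krt19. Krt13, Krt15 and Krt19 are the type I genes with the most reads in the family, side by side. In the type II cluster, 12 neighbours without a row, 7 of them hair keratins, lie between Krt7 and Krt5. Krt4 is flanked by Krt76, which had few reads, and by Krt79, which was not analysed here. Some adjacent genes thus differed widely in reads, and the average of Krt4 was 8.37 above that of its neighbour Krt76 in log2 CPM. Others lay close together, as did Krt13 at 8.01 and Krt15 at 8.14.

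**Figure D3:**
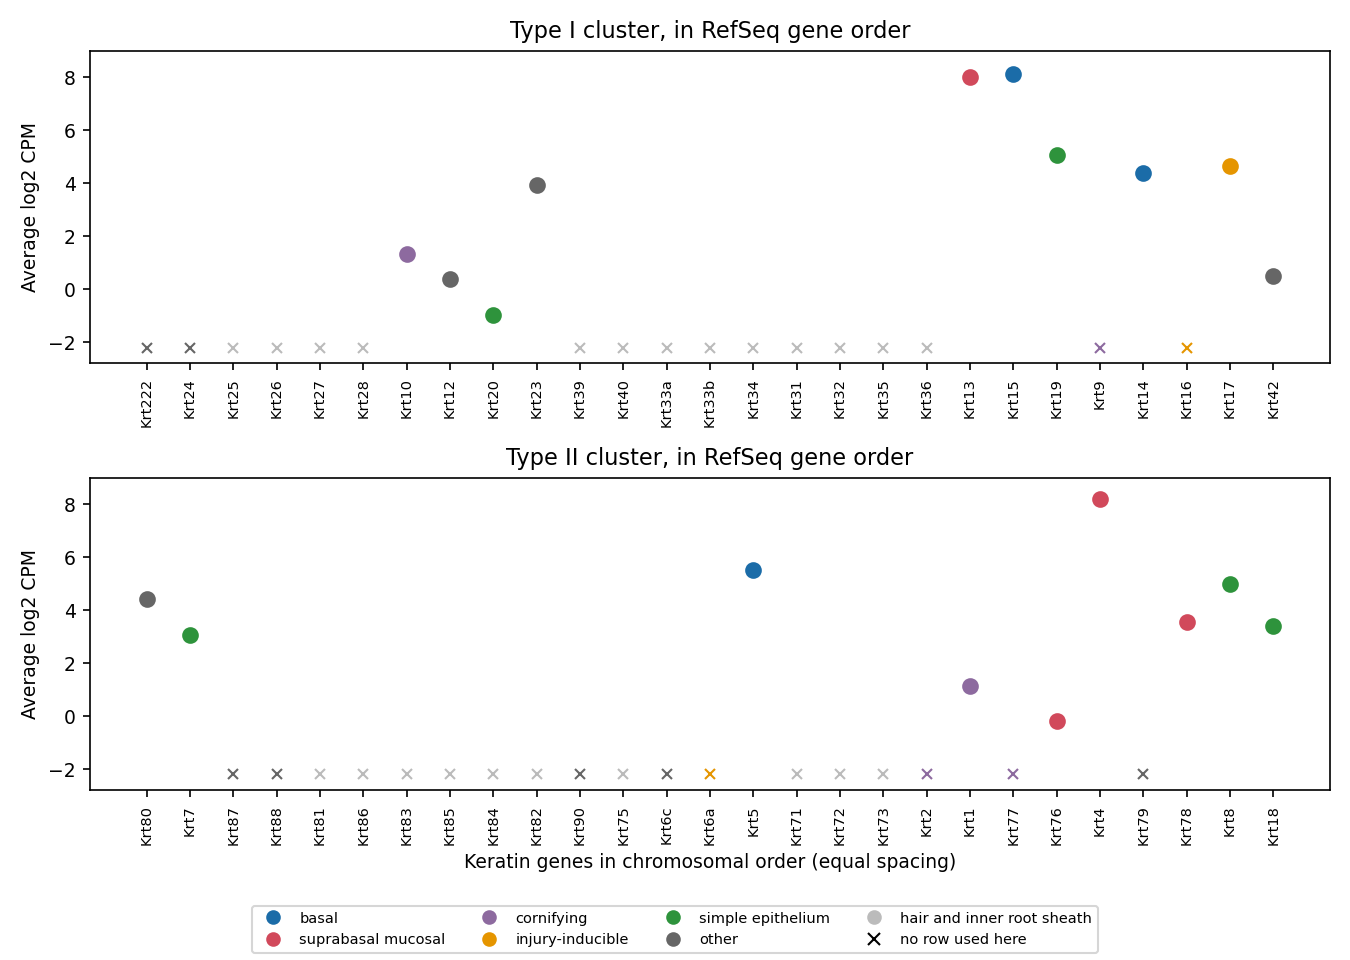
Average log2 CPM (y axis) of the keratin genes in the order in which RefSeq places them in each cluster (x axis, equal spacing, 27 genes a cluster), all libraries of both genotypes pooled and colored by class. Points are the 19 genes with a row, and crosses below the scale are the 35 genes not analysed here, which have no value. Krt13, Krt15 and Krt19 form 1 block in the upper panel, and the hair keratins are crosses throughout.

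Other tissue markers place these levels. Of 11 genes of fast skeletal muscle, 8 had a row, from 9.58 (Actn3) to 14.75 (Myh4) in average log2 CPM, all above every keratin. Of 12 genes listed for layered squamous epithelium other than keratins, 11 had a row with a median of 5.44, from 1.98 (Lgals7) to 7.65 (Dsp, a desmosome protein). Of 11 genes listed for ciliated and glandular airway epithelium, Epcam and Cdh1 among them, 8 had a row with a median of 4.98. They ran from 2.88 (Bpifb1) to 11.74 (Muc5b, the gel-forming mucin of airway glands). The ciliated-cell gene Foxj1 was among those without a row, so this median does not speak to ciliated cells. Endothelial (3 of 4), fibroblast (4 of 4) and cartilage (3 of 3) markers had medians of 5.41, 6.94 and 2.11. Whether each listed gene is confined to its cell type was not tested, so these medians are of gene lists and not of cell types. The part of the tissue from which the keratin reads came was not tested, and in such bulk libraries fewer epithelial cells and less RNA per cell cannot be told apart.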

How the data were processed

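RNA from the TA muscle of 4 Pink1-/- and 4 WT male rats was sequenced from TruSeq libraries, and samples were grouped by their genotype labels. The submitters' processing notes name RSEM (no version) and edgeR 3.9 as the authors' tools. The genome build, annotation, normalization and low-count filter were not given in the sources used here. In all, 14016 entries make up the deposited table, and the only measure used was the log2 CPM that the authors averaged over all libraries. Its 5 other columns of results hold the authors' own genotype comparison (fold change, likelihood ratio, p-value, adjusted p-value and a status call) and were not used. It has 0 columns per rat, so depth and spread are unknown and the test planned for values per rat was not run.

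Average CPM was taken as 2 to the power of the log2 value and summed within keratin classes. The sum over all entries was 1017595, near the 1000000 that CPM implies. The deposited average falls no lower than -1.34. The members, classes and marker lists were chosen with earlier results of these data known. Every keratin with a row is named, by a rule that also gives values to the 4 most abundant of each class. LOC102551453 was chosen after its description was seen. The code that sums the classes was checked on made-up values with known sums, and no statistical test was made. RefSeq names came from GRCr8, and all 19 keratin symbols matched. Target sequences came from the study's CodeSet list. Alternatives were other choices among repeated rows, a minimum average log2 CPM of 1, and Krt19 and Krt17 as basal. Scripts ran in Python 3.11.15 with pandas 2.3.3, numpy 2.4.6 and matplotlib 3.10.9.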

Additional observations from a re-analysis of the deposited data

How the results depend on the processing

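Each keratin had 1 row, so taking the lowest row of a symbol or summing its rows left all 6 class sums as they were. With a minimum average log2 CPM of 1, 15 keratins were left. The mucosal sum was then 559 CPM without Krt76, the simple-epithelium sum 83.7 CPM without Krt20 and the sum of the unclassed keratins 36.4 CPM without Krt42 and Krt12, and 11 keratins in place of 12 lay above the median of the 11870 entries left. With Krt19 and Krt17 counted as basal, the basal share was 38.3% in place of 32.8%, the simple-epithelium share 4.80% in place of 7.93%, and the injury-inducible share 0%. With the keratin 5-like row added, an alternative chosen after seeing the data, the basal sum was 364 CPM. With the row named Krt14 counted as Krt16, also chosen after seeing the data, the injury-inducible sum was 45.6 CPM and the basal sum 328 CPM. The mucosal class held the largest sum under each of these. Levels per kilobase of coding length were not run, because no lengths were used here. DESeq2, other filters and pseudocounts and leaving out each rat were not run, because the table has no values per rat. No paired analysis was possible because the columns carry no rat. What depth limits cannot be said, as the table gives no library totals.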
